A study of Mus musculus with 8 samples.

Results

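The epidermal differentiation complex is a cluster of genes that the outer epidermis uses to build the skin barrier. Its members were taken by name from the gene rows of the deposited counts: the late cornified envelope genes (Lce), the small proline-rich genes (Sprr), the S100A genes, and Flg2, Hrnr, Rptn, Crnn, Tchh, Tchhl1, Lor and Ivl. This gave 57 of 24538 genes, made up of 21 Lce, 15 Sprr and 13 S100A genes, 6 fused S100 type genes (Flg2, Hrnr, Rptn, Crnn, Tchh, Tchhl1), and loricrin and involucrin, which are grouped here as 2 structural proteins outside these named sets. Filaggrin (Flg) is not analysed here.

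Keratinocytes that leave the basal layer stop dividing, fill with keratin and finally die as cornified cells, whose plasma membrane is replaced by a cornified envelope. Loricrin, involucrin, Sprr and Lce proteins are cross-linked into this envelope by transglutaminases, and the fused S100 type proteins, among them filaggrin 2 and hornerin, bundle keratin or join the envelope. The S100A proteins are small calcium-binding proteins that are not confined to cornifying cells. Merkel cells are touch receptor cells that sit in the basal epidermis and arise from epidermal progenitors.

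RNA was sequenced from 2 cell types sorted from the skin of Atoh1-GFP mice at postnatal day 0, from the paw and from the back. Merkel cells were sorted as EPCAM+ cells with GFP and without SCA1. The epidermal cells that the labels call IFE, an abbreviation not spelled out there, were sorted as EPCAM+ SCA1+ cells without GFP. Each of the 4 groups (paw Merkel, paw IFE, back Merkel, back IFE) had 2 libraries, numbered 1 and 2, and all 8 carry the same genotype, with no other allele or treatment named. The labels do not say whether libraries came from separate or pooled animals, so the spread behind every p-value here is that between samples and may be technical.

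The libraries held 11139306 to 26195076 counts. The 9 Merkel markers summed to between 3042 and 4262 CPM (a library's counts scaled to a common total) in the Merkel libraries and to at most 18.3 CPM in the IFE libraries. The 8 basal keratinocyte markers summed to between 28021 and 44863 CPM in IFE cells and to between 1732 and 4066 CPM in Merkel cells. IFE therefore carried the basal markers of epidermal keratinocytes, and the 9 suprabasal keratinocyte markers were also present in it, at 5493 to 12575 CPM. In the Merkel libraries these suprabasal markers summed to 6106 CPM in paw Merkel 1, 515 CPM in paw Merkel 2, 2178 CPM in back Merkel 1 and 1297 CPM in back Merkel 2. The 2 paw Merkel libraries thus stood apart from each other, and calls of members that depend on either are given without it as well.

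All 57 members lie on chromosome 3 between chr3:90511034-93564643 in GRCm38 (mm10), a stretch of 3054 kb with 75 protein-coding genes in the GENCODE vM21 annotation. S100A genes hold both ends: 11 lie in a block at the start, and S100a11 (chr3:93520488-93526287) and S100a10 (chr3:93555080-93564643) lie at the far end. Between them come Lor, the Sprr genes, Ivl, the Lce genes and the fused S100 type genes, in that order. For 9 members more than 20% of the 75-base stretches of their exons also occur in another gene, so that their counts are uncertain: 4 Lce3 genes, the 3 Sprr2a genes, S100a4 (44.8%, with the overlapping Gm42674) and S100a11 (37.8%, with Gm12854).

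The start sites of the subfamilies differ in sequence, and 4 promoters are printed here because their genes carry the results below: S100a11, which passed the test, and Lor, Sprr1a and Lce1b, the structural members with the highest FPKM in their subfamilies. The sequences are from RefSeq (build GRCm38.p6), run 5′ to 3′ on the gene's strand from 250 bases before the start site to 50 after it, and capitals mark every match on either strand to TATAAA (the TATA box), TGANTCA (the core of the element that AP-1 factors bind) or GGGCGG (the GC box). They come from chr3:93520246-93520545 (plus strand) for S100a11, chr3:92083093-92083392 (minus strand) for Lor, chr3:92485832-92486131 (minus strand) for Sprr1a and chr3:92656877-92657176 (minus strand) for Lce1b.
S100a11: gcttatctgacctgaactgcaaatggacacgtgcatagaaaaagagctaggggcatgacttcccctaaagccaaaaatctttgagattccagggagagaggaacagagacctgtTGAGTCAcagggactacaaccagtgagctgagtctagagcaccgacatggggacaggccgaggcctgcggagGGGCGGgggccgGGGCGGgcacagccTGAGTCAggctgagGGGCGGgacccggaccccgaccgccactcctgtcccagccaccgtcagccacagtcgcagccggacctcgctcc
Lor: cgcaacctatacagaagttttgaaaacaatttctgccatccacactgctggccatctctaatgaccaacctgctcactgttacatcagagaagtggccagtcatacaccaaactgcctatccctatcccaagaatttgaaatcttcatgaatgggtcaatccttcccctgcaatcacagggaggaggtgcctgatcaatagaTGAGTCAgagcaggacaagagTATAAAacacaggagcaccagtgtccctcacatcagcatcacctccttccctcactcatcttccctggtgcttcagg
Sprr1a: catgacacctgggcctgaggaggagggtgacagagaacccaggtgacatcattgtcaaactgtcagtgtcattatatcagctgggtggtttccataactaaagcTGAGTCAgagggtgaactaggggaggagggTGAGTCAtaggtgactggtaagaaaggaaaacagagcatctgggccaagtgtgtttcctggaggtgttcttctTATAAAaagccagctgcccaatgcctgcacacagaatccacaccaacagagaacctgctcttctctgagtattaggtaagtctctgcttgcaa
Lce1b: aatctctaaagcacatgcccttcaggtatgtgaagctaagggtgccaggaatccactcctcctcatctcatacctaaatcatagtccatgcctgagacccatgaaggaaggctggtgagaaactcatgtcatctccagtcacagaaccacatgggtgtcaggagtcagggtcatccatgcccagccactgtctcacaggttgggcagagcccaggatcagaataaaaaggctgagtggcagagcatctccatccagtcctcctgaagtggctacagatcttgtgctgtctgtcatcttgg
In S100a11 the matches are 2 of TGANTCA and 3 of GGGCGG, with none of TATAAA. Lor has TATAAA starting 27 bases and TGANTCA starting 48 bases before the start site, and Sprr1a has 1 TATAAA and 2 TGANTCA, while Lce1b has no match to any of the 3 motifs. No 2 of the marked matches overlap.

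The RefSeq table gave 56 promoters for 52 of the 57 members, with 4 for S100a3, 2 for S100a16 and 1 for each of the others; S100a14, S100a10, S100a2, Sprr2g and Lce1f are named only. TGANTCA stood in 9 of 14 Sprr promoters, 4 of 6 fused S100 type promoters, both of Lor and Ivl, 2 of 14 S100A promoters (S100a11 and 1 of S100a16) and 0 of 20 Lce promoters, against 7.8% of 32851 promoters of the same length. TATAAA stood in 10 of 14 Sprr, 3 of 6 fused S100 type, both of Lor and Ivl, 4 of 14 S100A and 4 of 20 Lce promoters, against 13.6% of all. GGGCGG stood in 4 of 14 S100A promoters (28.6%), 1 of 14 Sprr promoters and none of the other 28, against 35.7% of all. Sprr2 genes are close copies of each other, so their matches are not independent, and a match is a description of letters, not a bound site.

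The complex took up little of the RNA in any library. Members summed to between 0.0164% (paw Merkel 2) and 0.0967% (back IFE 1) of a library's counts. There were 10 members with no count in any library (S100a2, S100a5, Sprr2a1, Sprr2a2, Sprr2e, Sprr3, Lce3b, Lce3d, Lce3e and Lce3f), and 15 had counts in all 8. Between 28 and 40 members had counts in 7 of the libraries, and 16 in paw Merkel 2.

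**Figure D1:**
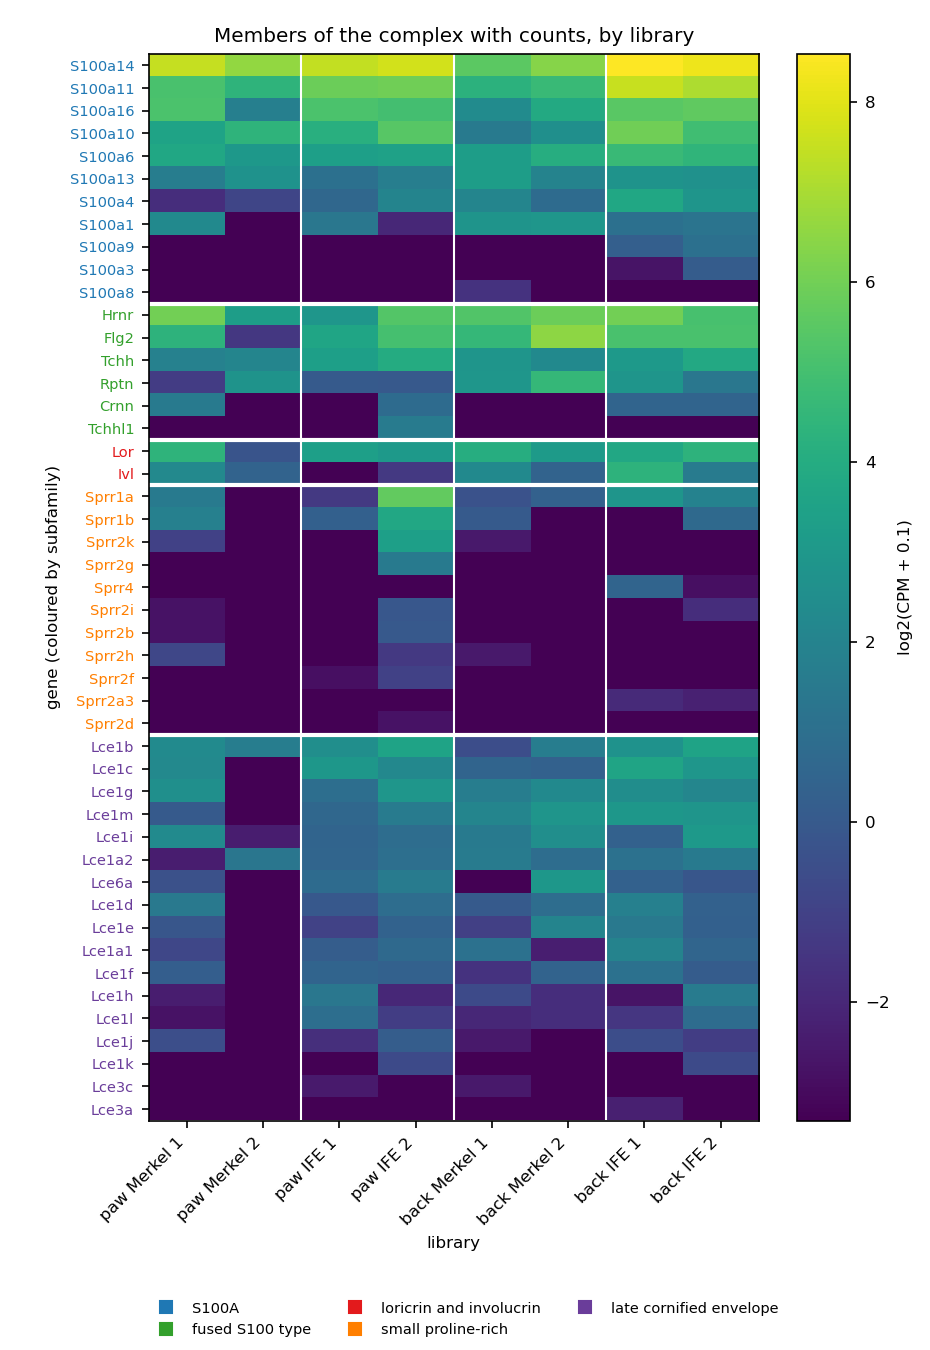
Heat map of the 47 members with counts (rows, by subfamily and mean level) in the 8 libraries (columns), as log2(CPM + 0.1). The S100a14 row is bright in every library, paw Merkel 2 is dark in most rows below the S100A genes, and the Sprr genes are brightest in paw IFE 2.

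Per length, S100A transcripts stood highest. The mean over the 8 libraries of the FPKM deposited by the authors (fragments per kilobase of transcript, scaled to depth) was 250 for S100a14, 187 for S100a11, 53.9 for S100a10, 37.6 for S100a6 and 37.5 for S100a16. Lor followed with 27.0, Lce1b with 18.8, Sprr1a with 17.1 (4.87 without paw IFE 2) and Lce1c with 12.4, while the long transcripts Flg2 and Hrnr had 4.64 and 4.15. Of the 56 members in the FPKM table, 25 reached 1 FPKM in both libraries of back IFE, 22 in back Merkel, 21 in paw IFE and 8 in paw Merkel. The last count rests on paw Merkel 2, where 12 members reached 1 FPKM, while 24 did in paw Merkel 1 and 24 to 31 in each of the other 6 libraries.

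The 32 members with enough counts to be tested were 9 S100A, 14 Lce, 2 Sprr and 5 fused S100 type genes with Lor and Ivl. They were tested across all 15151 genes by the quasi-likelihood F test of edgeR, and a call is an adjusted p below 0.05 (Benjamini-Hochberg, over all of these genes). A member could enter the test through whichever group it was high in, so these 32 do not stand for all members.

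Merkel cells of the back had lower S100a14, S100a11 and S100a10 than IFE cells of the back, and no other member passed the test there. That is 3 of 32 members lower and 0 higher, where 7.45% of all genes tested were called lower and 15.4% in either direction. Averaged over both sites the same 3 genes were lower in Merkel cells and none was higher, against 11.3% of all genes lower and 23.9% in either direction. In the paw 0 of 32 members passed, where 6.21% of all genes did. At an unadjusted p under 0.05 there were 2 members in the paw, S100a11 and Ivl. DESeq2 called 1 member in the paw (Ivl, higher in Merkel cells) and limma-trend 0, where they called 14.7% and 7.23% of all genes.

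S100a14 (chr3:90526856-90528837) encodes an S100 protein of epithelial cells. Its level was 178 and 97.9 CPM in the paw Merkel libraries, 172 and 213 CPM in paw IFE, 46.1 and 83.7 CPM in back Merkel, and 371 and 298 CPM in back IFE. The back groups were far apart, and the paw groups overlapped because paw Merkel 1 lay above paw IFE 1. In the back the mean was 64.9 ± 26.6 CPM in Merkel cells and 334 ± 51.7 CPM in IFE cells (SD, n = 2), a log2 fold change of -2.36 (SE 0.42, edgeR adjusted p = 0.0036). Averaged over both sites it was -1.42 (SE 0.29, edgeR adjusted p = 0.0048), and in the paw alone -0.48 (SE 0.40, edgeR adjusted p = 0.55).

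S100a11, a partner of annexin A1 whose promoter is printed above, stood at 35.3 and 20.6 CPM in paw Merkel, 58.8 and 63.0 CPM in paw IFE, 19.7 and 26.4 CPM in back Merkel, and 184 and 135 CPM in back IFE. All 4 Merkel libraries were below all 4 IFE libraries. Its log2 fold change was -2.79 in the back (SE 0.46, edgeR adjusted p = 0.0022), -1.96 averaged over both sites (SE 0.32, edgeR adjusted p = 0.0011) and -1.12 in the paw (SE 0.44, edgeR adjusted p = 0.17). The calls of S100a14 and S100a11 held in every alternative run, with a highest adjusted p of 0.0371.

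S100a10, the light chain that binds annexin A2, was at 11.8 and 20.7 CPM in paw Merkel, 17.9 and 43.7 CPM in paw IFE, 2.74 and 5.86 CPM in back Merkel, and 62.3 and 30.1 CPM in back IFE. The back groups did not overlap, and the paw groups did. The log2 fold change was -3.43 in the back (SE 0.79, edgeR adjusted p = 0.014) and -2.17 over both sites (SE 0.53, edgeR adjusted p = 0.013). The call in the back was lost without back Merkel 1 or without back IFE 1 (adjusted p up to 0.0841), and the averaged one without paw IFE 2 or without back IFE 1 (adjusted p up to 0.0748). Over the libraries left out singly the log2 fold change ran from -4.08 to -2.82 in the back and from -2.50 to -1.78 in the average.

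Whether the difference between Merkel and IFE cells itself depended on the site was tested as an interaction, and 0 of 32 members passed, as did 0% of all genes. For S100a14 the Merkel against IFE difference was 1.88 less negative in the paw than in the back on the log2 scale (SE 0.58, edgeR adjusted p = 0.39), for S100a11 1.67 (SE 0.61, adjusted p = 0.48) and for S100a10 2.51 (SE 1.04, adjusted p = 0.54). At an unadjusted p under 0.05 there were 4 members, these 3 and Ivl, and DESeq2 and limma-trend called 0 as well. The larger difference in the back is thus not shown to differ from that in the paw.

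**Figure D2:**
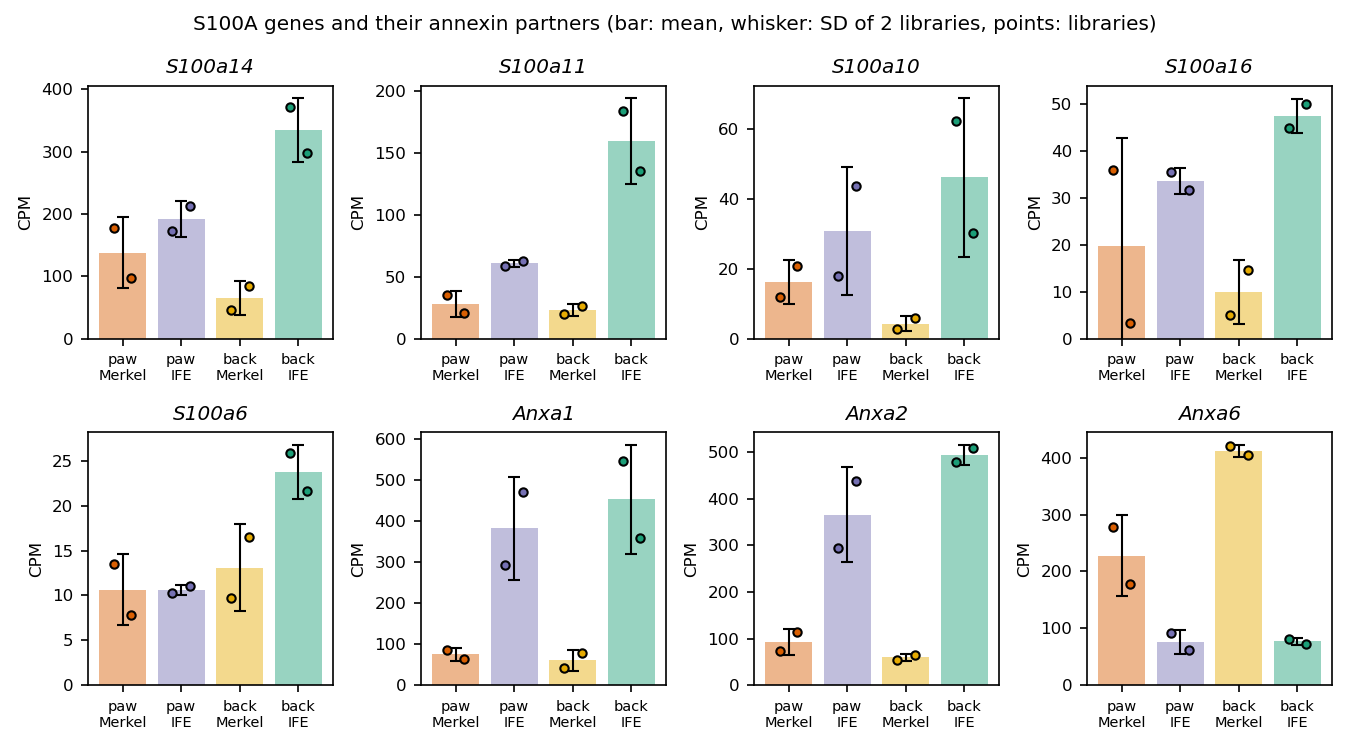
CPM of 5 S100A genes and of 3 annexins in each group (bars, means; whiskers, SD of 2 libraries; points, libraries). S100a11, Anxa1 and Anxa2 are lower, and Anxa6 higher, in all 4 Merkel libraries than in any IFE library, while S100a6 overlaps between the paw groups.

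The annexins that bind S100A proteins were taken as a list of 5 with the receptors Ager and Tlr4. In the paw and in the back 2 of the 5 were lower and 1 higher in Merkel cells. Averaged over both sites 3 were lower and 2 higher. Of all genes, 6.21% were called in either direction in the paw, 15.4% in the back and 23.9% in the average. Anxa2, the partner of S100a10, was at 73.5 and 113 CPM in paw Merkel, 294 and 438 CPM in paw IFE, 54.8 and 64.7 CPM in back Merkel, and 480 and 511 CPM in back IFE. It was lower in Merkel cells by both contrasts, with log2 fold changes of -1.97 in the paw (edgeR adjusted p = 0.0067) and -3.05 in the back (edgeR adjusted p = 0.0003). Anxa1 fell alike, by 2.35 in the paw and by 2.92 in the back on the log2 scale (edgeR adjusted p = 0.0076 and 0.0013). Anxa6 went the other way, higher by 1.58 in the paw and 2.43 in the back on the log2 scale (edgeR adjusted p = 0.024 and 0.0013). Ager, a receptor for S100 proteins, was higher (log2 3.43, edgeR adjusted p = 0.016) and Tlr4 lower (log2 -6.52, edgeR adjusted p = 0.035) in the average over sites, and neither passed at a single site. The call of Tlr4 was lost without either paw Merkel library (edgeR adjusted p = 0.0656 and 0.0697).

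IFE sorts can also hold immune cells, which express S100A genes. The 12 myeloid and Langerhans cell markers summed to 1276 CPM in back IFE 1, 209 CPM in back IFE 2, 63.6 and 77.3 CPM in the paw IFE libraries, and 0.738 to 9.11 CPM in the Merkel libraries, with none of the 12 at 0 throughout. S100a10 was also highest in back IFE 1, as were S100a14 and S100a11. Without back IFE 1 the log2 fold changes in the back were -2.20 for S100a14, -2.56 for S100a11 and -2.82 for S100a10, of which the first and second passed and the last did not (edgeR adjusted p = 0.0841). The part of immune cells in these differences was not tested. In bulk RNA fewer cells of a type and less RNA per cell cannot be told apart.

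None of the remaining S100A genes passed in the main edgeR run. DESeq2 called S100a4 lower in Merkel cells in the average over sites (adjusted p = 0.027), and limma-trend called S100a9 lower in the back (adjusted p = 0.027). S100a9 had counts in back IFE alone and entered the test through that group, so its direction was fixed in advance. S100a16 was at 35.9 and 3.41 CPM in paw Merkel, 35.6 and 31.6 CPM in paw IFE, 5.10 and 14.7 CPM in back Merkel, and 44.8 and 49.99 CPM in back IFE. The back groups did not overlap (log2 fold change -2.27, SE 0.94, edgeR adjusted p = 0.13), and the 2 paw Merkel libraries lay on opposite sides of paw IFE. In the back S100a16 did pass in edgeR without a filter on low counts and without either paw Merkel library. Its log2 fold change there ran from -3.22 to -1.72 over the alternatives. Without a filter it also passed in the average over sites. S100a6 ran from 7.84 to 16.5 CPM in the Merkel libraries, from 10.2 to 11 CPM in paw IFE and from 21.6 to 25.9 CPM in back IFE (back log2 fold change -0.86, SE 0.76, edgeR adjusted p = 0.48). S100a13 stayed between 1.96 and 9.58 CPM with overlapping groups at both sites.

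S100a1, a member better known from muscle and nerve, was at 4.84 and 0 CPM in paw Merkel, 2.49 and 0.148 CPM in paw IFE, 6.85 and 7.43 CPM in back Merkel, and 1.95 and 2.29 CPM in back IFE. Back Merkel lay above back IFE in both libraries, and the difference did not pass (log2 1.75, SE 1.96, edgeR adjusted p = 0.59). S100a4 was highest in back IFE, with 13.1 and 7.21 CPM, and lowest in paw Merkel, with 0.192 and 0.461 CPM (averaged log2 fold change -2.44, SE 0.99, edgeR adjusted p = 0.098), with counts that could be shared with Gm42674.

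S100a8 and S100a9, the calprotectin pair that stressed epidermis and neutrophils make, were close to absent. S100a9 had 20 and 52 counts in the back IFE libraries and 0 in the other 6, and S100a8 had 3 counts in back Merkel 1 and 0 in the other 7. The 12 neutrophil markers summed to at most 0.911 CPM in any library, and 4 of them were at 0 in all. S100a3, a hair cuticle protein, had 1 and 26 counts in back IFE and 0 elsewhere.

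**Figure D3:**
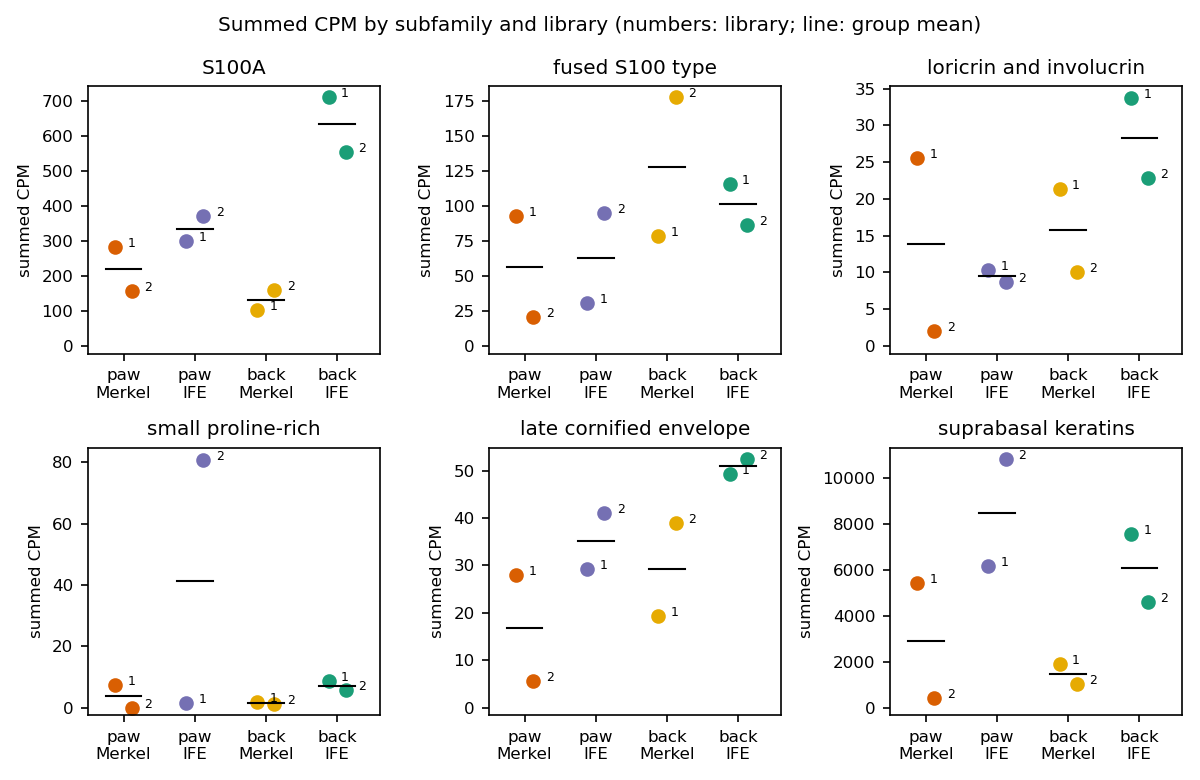
Summed CPM of each subfamily and of the 6 suprabasal keratins in each library (points, with library numbers; lines, group means). S100A sums of both back Merkel libraries lie below all IFE libraries, the Sprr sum is high only in paw IFE 2, and paw Merkel 2 is the lowest library for suprabasal keratins and for every subfamily except the S100A genes.

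Summed over the subfamily, the S100A genes gave 282 and 157 CPM in paw Merkel, 300 and 370 CPM in paw IFE, 104 and 160 CPM in back Merkel, and 711 and 554 CPM in back IFE. The order of the group means was back IFE, paw IFE, paw Merkel and back Merkel, and paw Merkel and back Merkel overlapped. For the other 44 members the sums were 153.5 and 28.4 CPM in paw Merkel, 71.8 and 225 CPM in paw IFE, 121 and 228 CPM in back Merkel, and 208 and 168 CPM in back IFE. No order of groups can be read from these, because the 2 libraries of paw Merkel, paw IFE and back Merkel differed from each other by more than the group means did.

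Loricrin, the main protein of the cornified envelope in mouse, was at 20.8 and 0.738 CPM in paw Merkel, 10.4 and 8.39 CPM in paw IFE, 16.5 and 8.79 CPM in back Merkel, and 13.6 and 19.9 CPM in back IFE. Apart from paw Merkel 2, Merkel and IFE libraries covered the same range, and the averaged log2 fold change was -0.10 (SE 0.83, edgeR adjusted p = 0.95). Involucrin, an early scaffold of the envelope, was at 4.74 and 1.29 CPM in paw Merkel, 0 and 0.296 CPM in paw IFE, 4.87 and 1.27 CPM in back Merkel, and 20.2 and 2.98 CPM in back IFE. Its paw IFE libraries held 0 and 6 counts, the fewest of all groups. The paw difference (log2 4.33, SE 1.89, edgeR adjusted p = 0.22) did not pass in edgeR and did in DESeq2 (adjusted p = 0.047).

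Among the fused S100 type genes none passed in any comparison of the main edgeR run, and the replicates were far apart. In alternative runs Flg2 was called lower, as given below. Hrnr was called higher in Merkel cells in the average with paw Merkel 2 and paw IFE 2 both left out. That run left 1 library in each of these groups. Hornerin (Hrnr, chr3:93319749-93333570) was at 65.4 and 9.68 CPM in paw Merkel, 7.29 and 41.0 CPM in paw IFE, 40.0 and 57.5 CPM in back Merkel, and 63.9 and 33.8 CPM in back IFE. Filaggrin 2 (Flg2, chr3:93197278-93221391) was at 20.5 and 0.277 CPM in paw Merkel, 12.3 and 32.8 CPM in paw IFE, 24 and 91.9 CPM in back Merkel, and 35.1 and 34.8 CPM in back IFE. For both genes the Merkel and IFE libraries overlapped at each site, and the back log2 fold changes were 0.00 for Hrnr (SE 0.89) and 0.73 for Flg2 (SE 1.20). Trichohyalin (Tchh), a protein of the inner root sheath, was below IFE in both Merkel libraries at each site (3.59 to 7.15 CPM against 8.47 to 15.5 CPM), with an averaged log2 fold change of -1.32 (SE 0.67, edgeR adjusted p = 0.18). Repetin (Rptn) was at 0.335 and 6.64 CPM in paw Merkel and 7.38 and 23.6 CPM in back Merkel, against 0.888 to 7.27 CPM in IFE (averaged log2 1.79, SE 1.01, edgeR adjusted p = 0.22). Crnn stayed at or below 2.83 CPM, and Tchhl1 had 59 counts, all in paw IFE 2.

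The Sprr genes, envelope cross-bridges that rise in stressed or hyperproliferative epidermis, were high in 1 library. Sprr1a was at 51.5 CPM in paw IFE 2, 0.285 CPM in paw IFE 1, 2.78 and 0 CPM in paw Merkel, 0.685 and 1.17 CPM in back Merkel, and 7.22 and 3.70 CPM in back IFE. Sprr1b stood at 13.9 CPM and Sprr2k at 10.1 CPM in paw IFE 2, with at most 3.5 and 0.383 CPM in the other 7 libraries. Sprr4 was above 0 in back IFE alone, at 1.30 and 0.0382 CPM. Summed, the 15 genes gave 80.8 CPM in paw IFE 2, 0 in paw Merkel 2, and 1.17 to 8.68 CPM in the rest. The 2 that could be tested, Sprr1a and Sprr1b, passed in no comparison in the main edgeR run (averaged log2 fold change of Sprr1a -3.37, SE 1.42, edgeR adjusted p = 0.11). DESeq2 called Sprr1a lower in Merkel cells in the average. So did edgeR without a filter on low counts, without paw Merkel 1 and without paw IFE 1. The last of these runs kept paw IFE 2 as the only paw IFE library. Over the libraries left out singly the averaged log2 fold change of Sprr1a ran from -7.22 to -0.14. In the paw it ran from -11.9 to 2.27, so its sign there depended on a single library.

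Other values moved with this library. Fosl1, an AP-1 subunit, was at 8.78 CPM in paw IFE 2 and at most 0.153 CPM elsewhere. The sum of the 6 suprabasal keratins was highest there as well, at 10787 CPM against 6169 CPM in paw IFE 1. Of the 6, Krt1, Krt10 and Krt80 were highest in this library, and Krt2, Krt77 and Krt78 were highest in others. The part of Fosl1 or of suprabasal cells in the Sprr level was not tested.

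The Lce genes, which encode envelope proteins of the outermost living layers, were low throughout. Lce1b (chr3:92655650-92656926) was at 4.94 and 3.13 CPM in paw Merkel, 5.62 and 11.5 CPM in paw IFE, 0.609 and 3.13 CPM in back Merkel, and 6.46 and 11.8 CPM in back IFE. Every Merkel library was below every IFE library, and the averaged log2 fold change of -1.69 did not pass (SE 0.86, edgeR adjusted p = 0.18). Lce1c was at 4.74 and 0 CPM in paw Merkel, 7.70 and 4.59 CPM in paw IFE, 1.29 and 1.17 CPM in back Merkel, and 12.2 and 7.37 CPM in back IFE (averaged log2 fold change -2.17, SE 1.20, edgeR adjusted p = 0.22). The back groups of Lce1c did not overlap, and the paw groups did.

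Lce1m showed a different order, with 0.911 and 0 CPM in paw Merkel, 1.47 and 2.91 CPM in paw IFE, 4.11 and 7.23 CPM in back Merkel, and 7.54 and 7.25 CPM in back IFE. Both back groups lay above both paw groups, and neither site difference passed (log2 -3.56, SE 1.70, edgeR adjusted p = 0.51 in Merkel cells, and -1.75, SE 1.57, edgeR adjusted p = 1 in IFE cells). Of the 14 Lce genes tested, 12 had a negative log2 fold change in the paw, 12 in the back and 13 in the average, and 0 passed. The median over all genes tested was -0.04, -0.06 and -0.09, and the share of negative signs over all genes was not taken. In paw Merkel 2 only 3 of the 21 Lce genes had counts, so the signs rest on few counts. The Lce3 genes, which are known from wounded and psoriatic skin, had 5 counts in all: 2 of Lce3a and 3 of Lce3c.

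**Figure D4:**
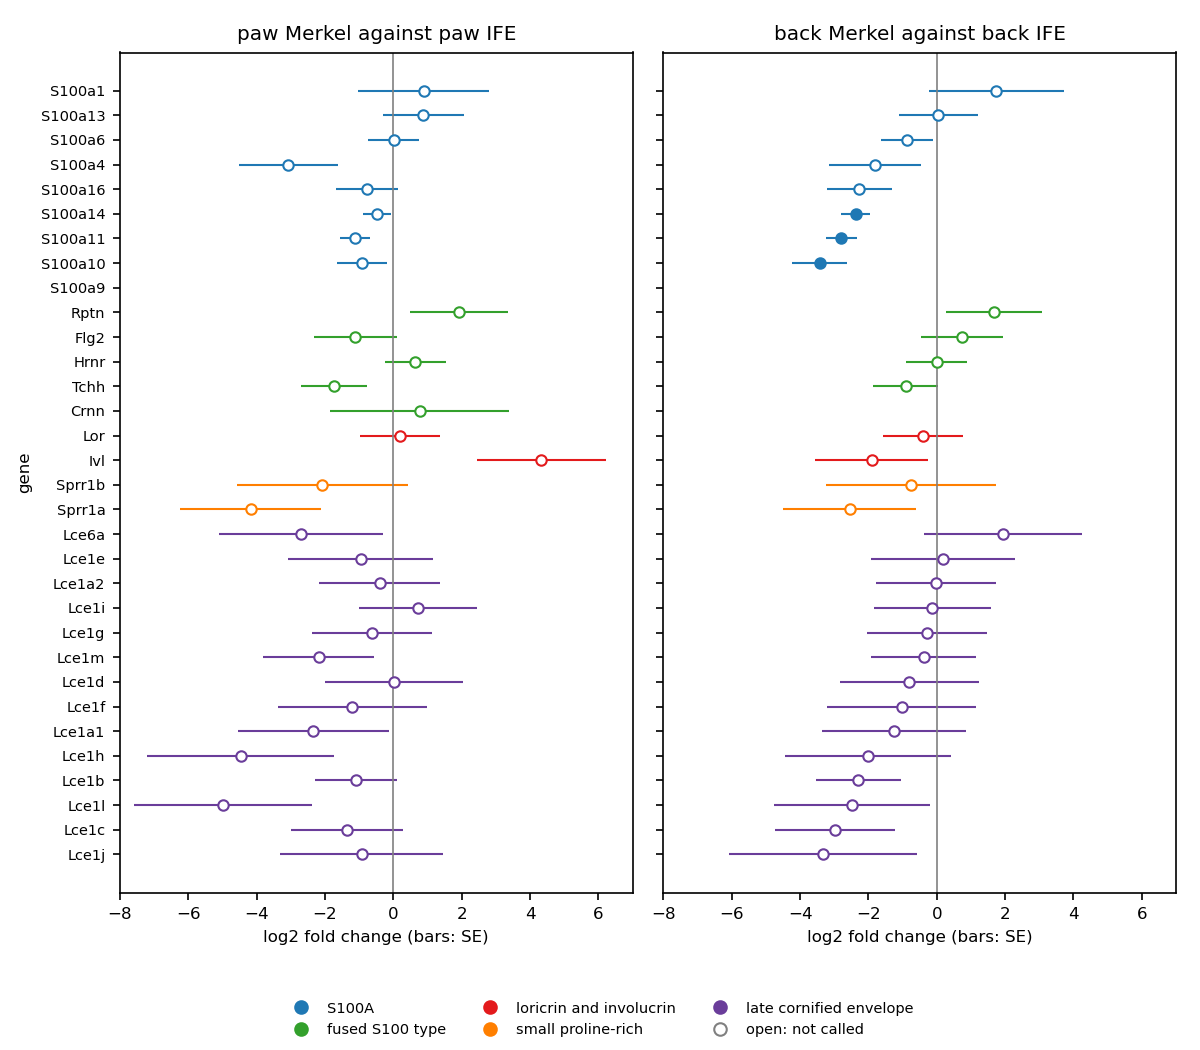
Log2 fold changes of the tested members, Merkel against IFE, in the paw (left) and in the back (right), with SE from edgeR (filled, adjusted p below the threshold; colours, subfamily; S100a9 is left out of both panels and Crnn of the right one, being at 0 in a group). Only S100a14, S100a11 and S100a10 in the back are filled, and most Lce and Sprr points lie left of 0 with long error bars.

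Over the 32 tested members the median log2 fold change was -0.93 in the paw, -0.97 in the back and -1.30 in the average, beside -0.04, -0.06 and -0.09 over all genes tested. Negative values were held by 21 members in the paw, by 26 in the back and by 26 in the average. The share of negative signs over all genes was not taken. S100a9 entered the test through back IFE alone, so its negative sign in the back and in the average was fixed in advance. In the back both Merkel libraries lay below both IFE libraries for 15 of the 32 members, where 32.8% of all genes did. These 15 include S100a9 and Crnn, which were at 0 in back Merkel. In the paw this held for 10 of 32, where 28.7% of all genes did.

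Replicates of the 32 tested members scattered more than those of all genes tested. The 2 sets were not matched for level, and the part of low counts in this was not tested. The median absolute log2 difference between the 2 libraries of a group was 2.94 over the members and 1.00 over all genes in paw Merkel, 0.95 and 0.51 in paw IFE, 0.88 and 0.74 in back Merkel, and 0.77 and 0.62 in back IFE. Paw Merkel 2 lacked most structural members, with 3 of 21 Lce and 0 of 15 Sprr genes above 0 counts, against 14 and 6 in paw Merkel 1. Krt1 and Krt10, the keratins of the suprabasal layers, were at 243 and 142 CPM in paw Merkel 2 and at 2575 and 2544 CPM in paw Merkel 1. The part of suprabasal cells in the difference between these libraries was not tested.

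Without paw Merkel 1, S100a16, Lce1c and Flg2 were called lower in paw Merkel cells, where the remaining library is assumed to vary like the other groups. These were 3 of 39 members then tested, where 7.31% of all genes were called lower. In the average over sites 10 of the 39 were lower, where 15.7% of all genes were: S100a16, Lor, Sprr1a, Lce1g, Lce1c, Lce1m and Flg2 beside S100a14, S100a11 and S100a10. The paw Merkel library left, paw Merkel 2, was at 0 CPM for Sprr1a, Lce1g, Lce1c and Lce1m. It was at 0.277 CPM for Flg2, 0.738 CPM for Lor and 3.41 CPM for S100a16, so these calls rest on 1 library with few or no reads. This alternative also moved the median of all genes to -0.35 in both comparisons. Without paw Merkel 2 the counts were 0 in the paw and 3 in the average.

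**Figure D5:**
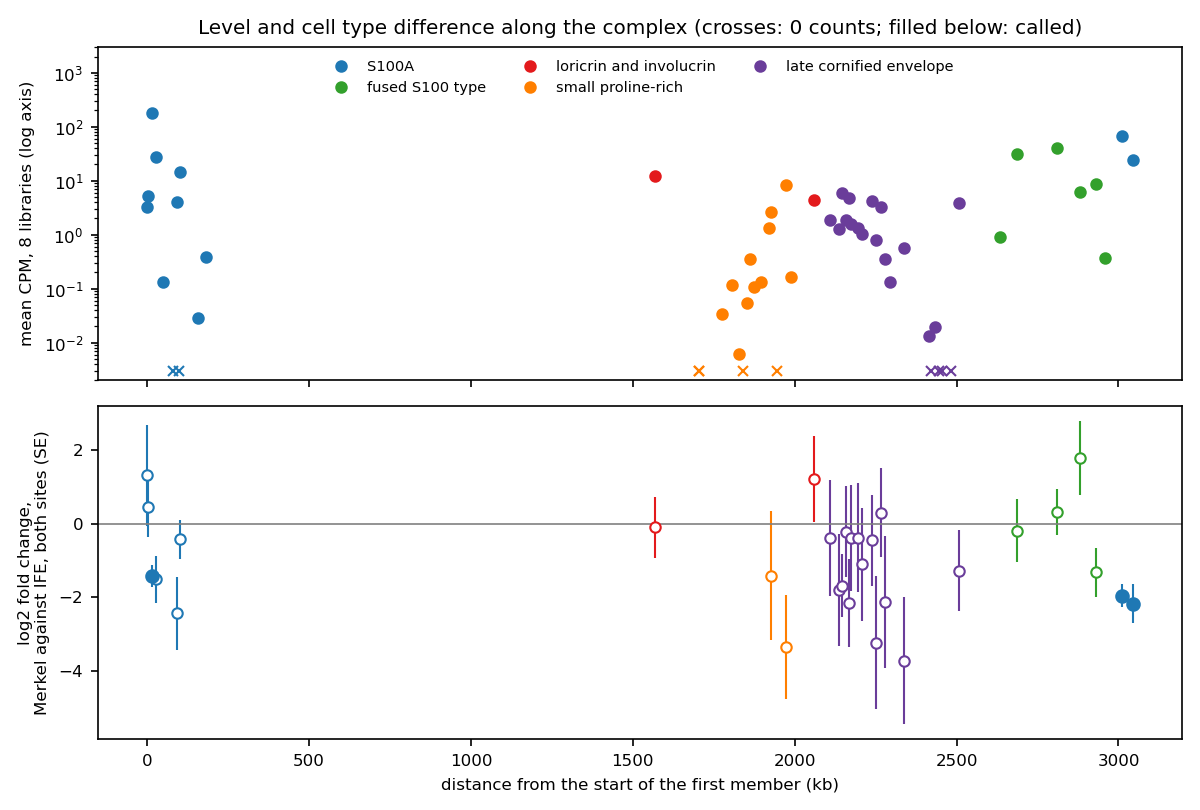
Mean CPM over the 8 libraries on a log axis (top; crosses, 0 counts in all) and averaged log2 fold change of Merkel against IFE with SE (bottom; filled, adjusted p below the threshold) of the members along the complex, by distance from the start of S100a1 in kb. The 3 filled points are S100a14 near the start and S100a11 and S100a10 at the far end, and no gene between them is filled.

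Between sites no member differed past the threshold in either cell type. Paw Merkel against back Merkel gave 0 of 32 members, where 0.185% of all genes passed, with 2 members at an unadjusted p under 0.05 (S100a14 and S100a10) and 0 by DESeq2 and by limma-trend. Without paw Merkel 1, Flg2 was lower in paw Merkel. Paw IFE against back IFE also gave 0 of 32, as for all genes (0% passed), with 3 at an unadjusted p under 0.05 (Ivl, S100a11 and S100a9), 1 by DESeq2 (Ivl, lower in paw, where DESeq2 called 0.554% of all genes) and 0 by limma-trend. S100a9 had counts in back IFE alone and entered the test through that group, so it could only be lower in the paw. Both paw IFE libraries were below both back IFE libraries for 13 of 32 members, where 20.2% of all genes were, among them S100a14, S100a11, S100a16, S100a6, S100a4, Ivl and Lor. All 9 S100A genes tested had a negative log2 fold change there, of -1.39 for S100a11 (SE 0.44, edgeR adjusted p = 1) and -0.80 for S100a14 (SE 0.41, edgeR adjusted p = 1). All 12 myeloid and Langerhans markers also had a negative log2 fold change there (median -3.83, 7 at an unadjusted p under 0.05, 0 called), and their part was not tested.

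Several genes that act with the complex were lower in Merkel cells. Of 17 genes of envelope cross-linking and scaffold, 9 were lower and 0 higher in Merkel cells in the average over sites, 3 lower in the paw and 6 lower in the back. Of all genes 11.3% were called lower in the average, 1.93% in the paw and 7.45% in the back. Their median log2 fold change in the average was -1.56, beside -0.09 over all genes. Dsg1a and Perp, both of desmosomes, were lower at both sites, by 2.51 and 1.59 on the log2 scale in the paw and by 1.80 and 2.73 in the back. Transglutaminase 3 (Tgm3), which cross-links loricrin and Sprr proteins, was at 190 and 21.0 CPM in paw Merkel, 231 and 395 CPM in paw IFE, 35.9 and 64.9 CPM in back Merkel, and 299 and 260 CPM in back IFE. It was lower in the average (log2 -2.02, SE 0.53, edgeR adjusted p = 0.018), and it was low in paw Merkel 2. The averaged value was -3.21 without paw Merkel 1 and -1.60 without paw Merkel 2, and it passed both times.

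Of 6 suprabasal keratins 2 were lower in the average, Krt1 (log2 -1.77, edgeR adjusted p = 0.037) and Krt80 (log2 -1.53, edgeR adjusted p = 0.011), and 0 passed at either site alone. Beside these and the lists that follow, 11.3% of all genes were lower in the average, 1.93% in the paw and 7.45% in the back. Averaged, Krt1 was -3.06 without paw Merkel 1 and -1.34 without paw Merkel 2 on the log2 scale, and passed both times. Without paw Merkel 1, 5 of 6 keratins and 14 of 17 envelope genes were lower in the average, where 15.7% of all genes were, and 3 of 6 and 8 of 17 in the paw, where 7.31% were. Without paw Merkel 2, which left 1 paw Merkel library, fewer keratins and envelope genes were lower than without paw Merkel 1. This held in the average and in the paw, and fewer of all genes were lower as well. Of 13 genes tested for filaggrin processing and desquamation, the kallikrein proteases Klk5 and Klk10 were lower in the average and in the back, and Klk10 in the paw. Without paw Merkel 1 the lower genes of this list were 8 of 14 in the average and 5 of 14 in the paw. Among regulators of late differentiation Grhl3, Gata3, Cebpa, Maf, Zfp750 and Fosl2 were lower in the average, and Klf4 was higher (log2 0.89, SE 0.24, edgeR adjusted p = 0.021), a factor that keratinocytes need for barrier formation. In the paw Fosl2 was lower and Klf4 higher, and in the back Maf and Zfp750 were lower. Without paw Merkel 2 the averaged call of Maf and the paw calls of Fosl2, Klf4 and Klk10 were lost (adjusted p = 0.058, 0.0696, 0.158 and 0.142 in edgeR). Of 6 tested neighbours in the complex outside the named families, Pglyrp4 was lower in the average (4 of 7 without paw Merkel 1), and of 3 S100 genes outside the complex 0 passed in the paw, in the back or in the average.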

How the data were processed

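The values were gene counts per library, deposited by the authors as whole numbers, and a table of FPKM values that the authors had scaled to transcript length and depth. Per the submitters' processing notes, the genome was mm10 and the tools were featureCounts (Subread 1.4.6), TopHat2 2.0.13, DESeq2 1.6.3 and Cufflinks 2.2.1; annotation and strand setting are not given in the sources used here. Per the labels' protocols RNA was amplified before library construction, so counts are not independent molecules.

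Counts were analysed in R 4.3.3 with edgeR 4.0.16: filterByExpr by group (15151 genes), TMM scaling, 1 mean per group over all 8 libraries (4 residual degrees of freedom), the quasi-likelihood F test and Benjamini-Hochberg adjustment over all genes, with a threshold of 0.05. CPM are TMM-scaled. Alternatives were DESeq2 1.42.0, limma-trend (limma 3.58.1, prior count 2), other scalings and filters, a replicate block, only the groups compared, and leaving out libraries. FPKM were used to compare levels between genes, to count members at 1 FPKM or more, and to set beside CPM, and no test used them. Named genes were those called, the 3 highest by FPKM in each subfamily and a fixed panel; others were chosen after their values were seen. Members and lists were chosen with earlier results of these data known. Part of the list of regulators is not reported here.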

Additional observations from a re-analysis of the deposited data

How the results depend on the processing

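Counts of members called depended on the test, the filter and single libraries. In the paw the count of 0 became 1 with DESeq2 (Ivl), 1 without a filter on low counts (Sprr1a) and 3 without paw Merkel 1 and back IFE 2, and ranged from 0 to 3 over the libraries left out singly. Between Merkel sites it became 1 without a filter and 1 without paw Merkel 1 and back IFE 2 (Flg2 in both), with a range of 0 to 1. Between IFE sites it was 1 with DESeq2 (Ivl). Of all genes, DESeq2 called 14.7% in the paw and 0.554% between IFE sites. Without a filter 10% of all genes were called in the paw and 2.36% between Merkel sites. The run without paw Merkel 1 and back IFE 2 left 1 library in each of these groups, so its counts rest on the spread of the other groups. In the average over sites the count of 3 became 5 with DESeq2, 5 without a filter and 7 without paw Merkel 1 and back IFE 2, with a range of 2 to 10. The members tested then numbered 32, 47 and 38, and the genes called over all were 31.3%, 22.7% and 27.7%. The cause was not tested. Of all genes, 15.4% were called in the back in the main run, 26.2% with DESeq2, 21.1% with limma-trend and 17.3% without a filter. In the back the count of 3 lay between 2 and 4 in every alternative. Leaving out 2 libraries together was chosen after seeing the data, and was also done for paw Merkel 2 and paw IFE 2, without which Hrnr was called higher in the average. Single values were compared only for tested members that were called, among the 3 highest by FPKM in their subfamily or in the fixed panel. Of these values, 1937 kept their side of the threshold, 33 passed only in the alternative, 5 were lost and none that was called changed sign. Replicate number was also used as a block. The labels do not tie it to animals or batches, and its correlations of deviations between groups ran from -0.0427 to 0.0845. With this block the counts of members called were 0 in the paw, 3 in the back, 3 in the average and 0 elsewhere. Of all genes, 7.55% were then called in the paw, 16.6% in the back and 24.1% in the average. Genes called in the paw went from 941 to 1144. The members' counts were low, with at most 977 for an Lce gene and 1359 for an Sprr gene over all libraries.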

Other observations

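The 2 kinds of deposited value gave different pictures of a few members. FPKM divided by CPM should be near constant for a gene, and it varied by at most 2.14-fold between libraries for 26 of 28 members with at least 10 counts in at least 4 libraries and FPKM above 0 in each of these. It varied 15.9-fold for Lce6a, from 0.105 in paw Merkel 1 to 1.67 in back Merkel 2, and 3.79-fold for S100a1, from 0.731 in back Merkel 2 to 2.77 in back Merkel 1. The back Merkel libraries were thus alike for S100a1 by counts (6.85 and 7.43 CPM) and far apart by FPKM (19.0 and 5.42).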
